A study of Sus scrofa with 9 samples.

Results

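The comparison described here set sulforaphane against control in primary granulosa cells of the pig ovary (Sus scrofa), the somatic cells that surround the oocyte, respond to follicle-stimulating hormone (FSH) and make steroids. RNA was sequenced from 9 libraries in 3 groups of 3, all labelled genotype WT, cell type granulosa cell and primary cell. The groups had the treatments control, sulforaphane and FSH. The 6 control and sulforaphane libraries were chosen by those treatment labels. The FSH libraries entered the filter for tested genes, the shared estimate of spread, the alternative scalings and direct comparisons with sulforaphane. The labels give no dose, no duration and no vehicle. Nothing in them tells whether replicates are separate cultures or animals, so p-values measure only the spread between these libraries, which may be technical. Of 1081 rows of the deposited table, 919 had at least 1 FPKM (fragments per kilobase of transcript, scaled to sequencing depth) in at least 3 of the 9 libraries and were tested.

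Sulforaphane is an isothiocyanate released from cruciferous vegetables. It modifies cysteines of KEAP1, the adaptor that normally sends the transcription factor NRF2 to the proteasome, so that NRF2 accumulates and binds antioxidant response elements. The best known NRF2 targets make glutathione, reduce quinones, conjugate electrophiles, break down haem and restore oxidised thiols. In the follicle, granulosa cells also couple to the oocyte through gap junctions, convert androgens and cholesterol products, and lay down a basal and an intrafollicular matrix.

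The 6 libraries had recovered depths of 17800000 to 20800000 fragments, and the table held 1217490 to 1689257 counts of each, between 6.72% and 8.38% of the depth. Genes that differed little from control were missing from the table: in absolute log2 fold change the 1st percentile lay at 0.39 between sulforaphane and control, but at 0.0057 between sulforaphane and FSH. Passing the test was therefore nearly universal, and the sizes of the changes carry the description that follows. Gene lists below are counted over their tested members only, since most listed genes were not in the table. Sulforaphane replicate 3 stood apart. Among 441 genes with a mean of at least 5 FPKM with sulforaphane, 61 lay at least 1.5-fold from the mean of the other sulforaphane libraries in replicate 3 (13.8%), against 3.40% in replicate 2, 0.907% in replicate 1 and 0 in each control library. For some of the genes that replicate 3 moved, the change is also given without it.

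Of the 15 granulosa markers listed, 6 were analysed here: AMHR2, INHBA, FST, HSD17B1, KITLG and GJA1. Their summed level ranged from 393 to 399 FPKM in controls and from 576 to 716 FPKM with sulforaphane, most of it from GJA1. Of the 6 markers GJA1, FST and KITLG were higher and AMHR2, INHBA and HSD17B1 lower. The summed level of smooth muscle markers was high in every library labelled granulosa cell, through ACTA2 (smooth muscle actin, reads divided between loci). The 6 analysed markers of 8 summed to 7286 to 7583 FPKM in controls and to 2315 to 2530 FPKM with sulforaphane, almost all of it ACTA2. The other markers were far lower, with no member at 0, and the means of LMOD1, DES and MYOCD were below 1 FPKM with sulforaphane. Surface epithelium markers (KRT7, KRT8 and KRT18, 3 of 8) summed to 154 to 157 FPKM in controls and to 39.4 to 46.5 FPKM with sulforaphane. Stromal fibroblast markers (COL1A1, PDGFRB and THY1, 3 of 9) summed to 85.4 to 91.6 and 44.3 to 52.0 FPKM. The theca markers LHCGR and CYP11A1, 2 of 9 and both also expressed by luteinising granulosa cells, summed to 139 to 166 and 74.9 to 137 FPKM. Of the leukocyte, oocyte and erythroid markers, 0 were analysed here. In bulk RNA, fewer cells of a type and less RNA per cell cannot be told apart.

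Sulforaphane changed 915 of the 919 tested genes at an adjusted p below 0.05 (99.6%, edgeR's quasi-likelihood test with Benjamini-Hochberg adjustment). Of these, 315 were higher (34.3%) and 600 lower (65.3%), and the control and sulforaphane values of 882 genes did not overlap (96.0%). Many changes were modest: 91 genes rose and 225 fell at least 2-fold, and 21 rose and 37 fell at least 4-fold. At 8-fold or more the balance was even, with 8 rises and 7 falls. Tested against a minimum change of 1.5-fold, 137 genes were higher (14.9%) and 297 lower (32.3%). The summed level of the higher genes went from 7447 ± 87.0 FPKM (SD, n = 3) in controls to 14135 ± 175 FPKM, and that of the lower genes from 26588 ± 210 to 13658 ± 524 FPKM.

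The count of falls depended on the scaling between libraries. On library depth the median log2 fold change of the 919 genes was −0.56. TMM, a scaling that assumes that most tested genes do not change, moved that median to −0.09 and left 317 genes higher (34.5%) and 296 lower (32.2%), so the share of higher among called genes shifted as well. Of the 600 falls, 304 lost their call under TMM, and none of the 315 rises did (0 lost). The largest fall lost was −1.22 on the log2 scale and the smallest kept was −0.66. Falls below are therefore read against the median of −0.56, and calls that ended under TMM are named.

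**Figure D1:**
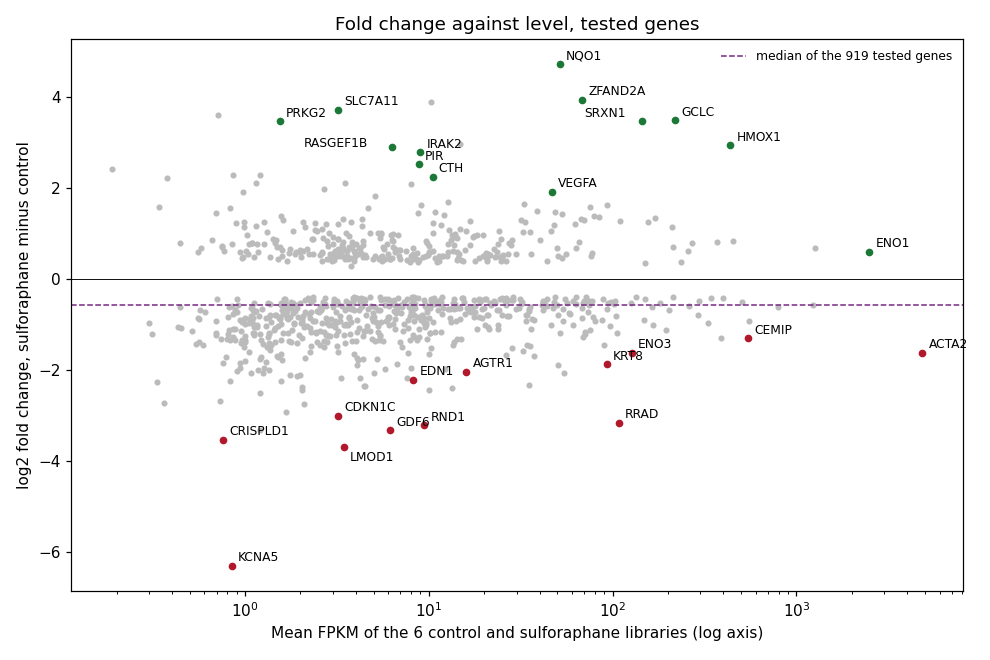
Each point is 1 of the 919 tested genes. The horizontal axis (log scale) is the mean level over the 6 control and sulforaphane libraries in FPKM and the vertical axis is the log2 fold change, sulforaphane minus control, on library depth. Rises and falls are separated by an empty band around 0, the dashed line marks the median of −0.56, and the fitted value of KCNA5 rests on counts of 0 to 2 with sulforaphane.

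Genes of glutathione synthesis and detoxification were among the largest rises. NQO1, which reduces quinones with NADPH, had the largest rise of a gene with a symbol. Its level was 4.07, 3.91 and 3.21 FPKM in the control libraries and 87.8, 84.7 and 126 FPKM with sulforaphane. All 3 sulforaphane libraries lay far above all controls, the highest being replicate 3. The rise was 26.6-fold (log2 fold change 4.73 ± 0.18 SE, adjusted p = 6.19e-10, edgeR), and 4.53 on the log2 scale without replicate 3. NQO1 lies on chromosome 6 from 17292962 to 17302593 (Sscrofa11.1). Its neighbour NOB1, a ribosome assembly factor 47511 bases away, rose 2.05-fold (log2 fold change 1.03, adjusted p = 1.65e-06, edgeR).

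GCLC, the catalytic subunit of the enzyme that limits glutathione synthesis, stood at 36.4, 34.6 and 35.9 FPKM in controls and at 373, 375 and 459 FPKM with sulforaphane. The groups were far apart, and the rise was 11.3-fold (log2 fold change 3.50 ± 0.093 SE, adjusted p = 2.94e-11, edgeR). SLC7A11, the cystine importer that supplies the cysteine for glutathione, was at 0.410, 0.490 and 0.440 FPKM in controls and at 4.51, 5.31 and 8.02 FPKM with sulforaphane. It rose 13.2-fold from a level that was low in every control library, and replicate 3 was again highest. Both members tested of the list for glutathione synthesis and cystine import rose (2 of 2, with 14 listed), beside 34.3% of all genes.

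The detoxification list held 9 tested genes, of which 7 rose and 2 fell, beside 34.3% and 65.3% of all genes. Its median log2 fold change was 1.70 beside −0.56 over all genes. GSTA1, a glutathione transferase, went from 3.32 ± 0.59 to 26.1 ± 6.6 FPKM, a 7.82-fold rise. GSTA4, which conjugates lipid peroxidation aldehydes, rose 2.32-fold, from 37.5 ± 3.7 to 86.9 ± 22.4 FPKM. Both lie in a cluster on chromosome 7 between 46538743 and 46656491 (Sscrofa11.1) with LOC100526118 and LOC100510917, and all 4 genes of it rose, with log2 fold changes of 2.97, 3.89, 2.29 and 1.21 from GSTA1 to GSTA4. Reads of GSTA1 and LOC100526118 had been divided between loci, so how the rise splits between loci is uncertain. LOC100510917 was low, going from 0.403 ± 0.084 to 1.99 ± 0.58 FPKM.

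Other members of the list metabolise aldehydes and epoxides. PIR, a nuclear iron protein with quercetinase activity, rose 5.77-fold, from 2.47, 3.07 and 2.25 FPKM to 13.1, 12.7 and 19.5 FPKM. EPHX1, microsomal epoxide hydrolase, rose 3.25-fold (reads divided between loci). PTGR1, which reduces the double bond of unsaturated aldehydes and of leukotriene B4, rose 2.09-fold, from 10.3 ± 1.9 to 21.6 ± 8.9 FPKM. These genes shared a pattern among the sulforaphane libraries: of 9 list members at 5 FPKM or more, 8 were highest in replicate 3 and 0 lowest there, with a median ratio of 1.48 to the other replicates, beside 1.10 over the 441 genes. Without replicate 3 the log2 fold changes of PIR, GSTA4 and PTGR1 were 2.30, 0.98 and 0.67 in place of 2.53, 1.21 and 1.07.

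Among thiol and peroxide genes, SRXN1 gave the most even response. Sulfiredoxin, which it encodes, restores overoxidised peroxiredoxins. Its level was 24.0, 24.4 and 23.1 FPKM in controls and 264, 260.5 and 268 FPKM with sulforaphane. The 3 treated libraries differed by less than 10 FPKM, replicate 3 included, and the rise was 11-fold (log2 fold change 3.47 ± 0.077 SE, adjusted p = 6.37e-12, edgeR). The list as a whole was mixed, with 3 of 6 members higher and 3 lower, beside 34.3% and 65.3% of all genes. PRDX6, a peroxiredoxin, rose 1.62-fold from 161 ± 10 to 262 ± 10 FPKM (reads divided between loci). TXNIP, the inhibitor of thioredoxin that also limits glucose uptake, fell 1.70-fold from 74.1 ± 2.0 to 43.5 ± 6.9 FPKM. SELENOP, a selenium carrier (reads divided between loci), fell 2.73-fold from 132 ± 18 to 48.2 ± 11.0 FPKM.

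Haem and iron genes rose in 5 of 6 tested cases (28 listed), beside 34.3% of all genes, with a median log2 fold change of 0.83. HMOX1, which cleaves haem to biliverdin, iron and carbon monoxide, was at 95.2, 111 and 95.0 FPKM in controls and at 872, 987 and 456 FPKM with sulforaphane. Every treated library was above every control, but replicate 3 reached only 0.49 times the mean of replicates 1 and 2, the reverse of NQO1. HMOX1 rose 7.70-fold (log2 fold change 2.94 ± 0.22 SE, adjusted p = 2.48e-07, edgeR), by 3.21 on the log2 scale without replicate 3.

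BLVRB, a biliverdin reductase and thus the next step of haem breakdown, went from 43.9, 48.3 and 44.3 FPKM to 147, 130 and 147 FPKM, a 3.10-fold rise with no overlap. SLC40A1, ferroportin, the iron exporter, rose 1.77-fold, from 264 ± 16 to 470 ± 149 FPKM, and was highest in replicate 3, with 643 FPKM against 380 and 388 FPKM. Without replicate 3 its log2 fold change was 0.54 in place of 0.82. TFRC, the transferrin receptor for iron uptake, rose 1.78-fold, from 47.3 ± 2.4 to 84.1 ± 7.2 FPKM, so genes of both iron import and iron export were higher. MT-2B, a metallothionein named after its value was seen, rose 2.16-fold from 9.29 ± 0.40 to 20.1 ± 4.4 FPKM. MAFF, a small MAF protein that pairs with NRF2 on DNA, was the only NRF2 regulator of the list that was tested (1 of 13 listed). It rose 1.37-fold (adjusted p = 0.0242, edgeR), a call that ended without sulforaphane replicate 3 (adjusted p = 0.127), without control replicate 2 (0.0858) and without control replicate 3 (0.0577).

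**Figure D2:**
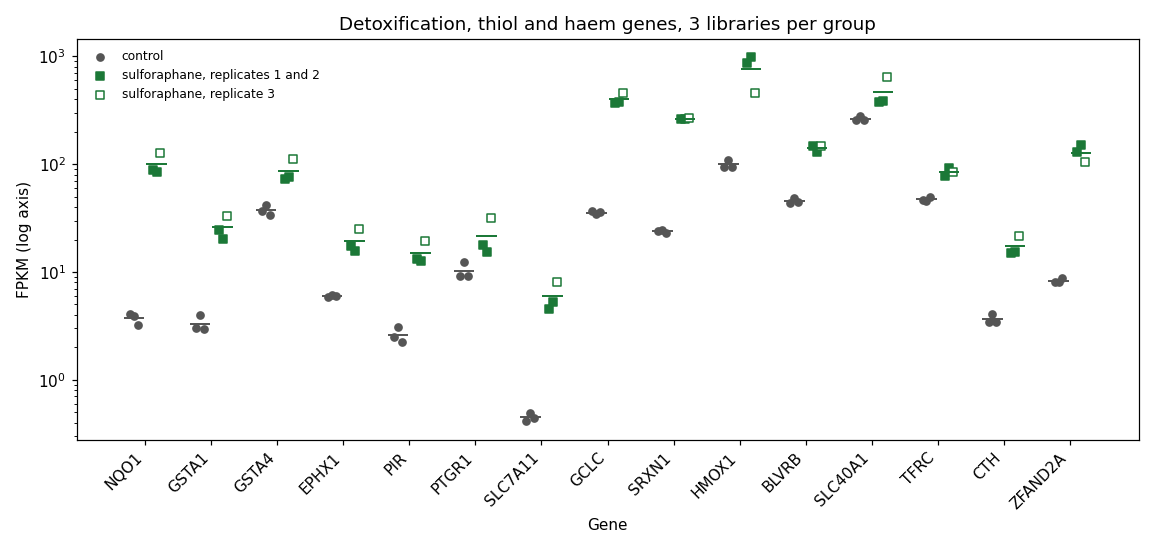
Level of 15 detoxification, thiol, haem and stress genes in each library, in FPKM on a log axis. Circles are the 3 controls, filled squares sulforaphane replicates 1 and 2, open squares replicate 3, and bars the group means. No gene shown had overlapping groups, and the open square lies above the filled ones for NQO1 and SLC7A11 and below them for HMOX1 and ZFAND2A.

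Stress response genes split by type. The list for the unfolded protein and integrated stress response had 7 of 8 tested members higher, beside 34.3% of all genes. Most of its members are ATF4 targets for amino acid supply, and its median log2 fold change was 1.08. PSAT1, a serine synthesis enzyme, rose 2.81-fold from 20.4 ± 3.4 to 57.3 ± 10.3 FPKM. ASNS, asparagine synthetase, rose 2.30-fold from 28.9 ± 5.3 to 66.6 ± 5.8 FPKM. DDIT4, an inhibitor of mTORC1 that is also induced by hypoxia, rose 2.46-fold from 40.4 ± 2.9 to 99.5 ± 4.5 FPKM. ATF3, a stress-induced repressor, was the member that fell, 2.36-fold from 7.63 ± 0.53 to 3.27 ± 0.61 FPKM. SLC7A5, a transporter of large amino acids, was called higher at 1.43-fold, but its replicate 3 (42.0 FPKM) lay within the control range of 40.3 to 43.0 FPKM, while replicates 1 and 2 were at 68.8 and 67.6 FPKM.

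Amino acid and nucleotide genes rose in 9 of 12 cases (median log2 fold change 0.89), beside 34.3% of all genes. The list shares SLC7A11 and SLC7A5 with the one above. CTH, which makes cysteine from cystathionine, went from 3.40, 4.08 and 3.42 FPKM to 14.9, 15.3 and 21.7 FPKM. It rose 4.75-fold (log2 fold change 2.25 ± 0.17 SE, adjusted p = 2.2e-07, edgeR), with a clear gap between the groups. CBS, the preceding step of the transsulfuration route, rose less, 1.63-fold from 4.30 ± 0.47 to 7.02 ± 1.20 FPKM. SLC6A9, a glycine transporter, rose 1.91-fold, and SLC23A2, a vitamin C transporter, 2.02-fold. ADA, adenosine deaminase, fell 3.44-fold from 6.40 ± 0.22 to 1.85 ± 0.33 FPKM.

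Of the heat shock list, 1 of 5 tested members rose and 4 fell, beside 34.3% and 65.3% of all genes. ZFAND2A, a zinc finger protein that arsenite and proteasome inhibition induce, rose from 8.03, 8.04 and 8.70 FPKM to 129, 150 and 104 FPKM. It was the second largest rise of a gene with a symbol, at 15.4-fold (log2 fold change 3.95 ± 0.14 SE, adjusted p = 3.61e-10, edgeR), and replicate 3 was its lowest treated library. The falls were small heat shock proteins of muscle. HSPB7 fell 7.60-fold, from 2.99, 3 and 2.86 FPKM to 0.3, 0.45 and 0.39 FPKM, with no overlap. HSPB2 and HSPB3 had log2 fold changes of −1.0 and −0.95, and their calls ended under TMM (adjusted p = 0.0703 and 0.0531, edgeR).

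p53 target genes did not move together: 3 of 10 were higher and 7 lower (4 under TMM), near the 34.3% and 65.3% of all genes. The list's median log2 fold change was −0.58 beside −0.56 over all genes. GADD45A, a growth arrest gene, fell 2.0-fold from 220 ± 5 to 110 ± 33 FPKM and GADD45B 2.84-fold from 15.1 ± 1.2 to 5.33 ± 0.59 FPKM. DDB2, a sensor of ultraviolet DNA damage, fell 1.79-fold. BBC3 (PUMA), a pro-apoptotic protein, had a log2 fold change of −0.63 with overlapping groups, and its call ended under TMM (adjusted p = 0.483, edgeR).

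Genes of glucose uptake and glycolysis rose in 9 of 11 tested cases (47 listed), with a median log2 fold change of 0.97. In the hypoxia list 9 of 10 tested genes passed (37 listed), 8 higher and 1 lower (median 0.79). Over all genes 34.3% were higher and 65.3% lower. SLC2A3 (GLUT3) went from 28.6, 27.1 and 30.2 FPKM to 73.7, 83.7 and 73.3 FPKM, a 2.68-fold rise with groups well apart. SLC2A1 (GLUT1) rose 2.44-fold, from 63.6 ± 5.9 to 155 ± 14 FPKM. SLC16A3 (MCT4), which exports lactate, rose 2.41-fold, from 90.9 ± 10.9 to 219 ± 18 FPKM. HK2, hexokinase, rose 2.08-fold and PFKFB3, which makes the activator of phosphofructokinase, 2.64-fold.

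The 2 enolases went opposite ways. ENO1, the ubiquitous form and the most abundant gene of the list, rose 1.51-fold from 1982 ± 116 to 3003 ± 243 FPKM. ENO3, the muscle form, fell 3.06-fold from 192 ± 2 to 62.8 ± 10.3 FPKM. HKDC1, a hexokinase-like gene at 0.547 ± 0.101 FPKM in controls, fell as well, 4.77-fold. It reached 1 FPKM in no control or sulforaphane library, so it was tested only because of the FSH libraries. Of 10 list members at 5 FPKM or more, 8 were lowest in replicate 3 and 0 highest, with a median ratio of 0.866 to the other replicates, the opposite of the detoxification enzymes.

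VEGFA, the angiogenic growth factor of the follicle, was at 19.0, 20.8 and 18.9 FPKM in controls and at 80.4, 88.3 and 52.1 FPKM with sulforaphane. All treated libraries were above the controls, replicate 3 least so. The rise was 3.79-fold (log2 fold change 1.92 ± 0.13 SE, adjusted p = 1.37e-07, edgeR). BNIP3, a mitophagy receptor, rose 2.2-fold from 131 ± 13 to 288 ± 4 FPKM, and ERO1A, an oxidase of the endoplasmic reticulum, 1.90-fold. MXI1, a MYC antagonist, did not pass: 2.26, 2.77 and 2.30 FPKM in controls stood beside 2.38, 2.79 and 5.63 FPKM with sulforaphane (adjusted p = 0.0554, edgeR). It was past the threshold under TMM (adjusted p = 0.00121), and its log2 fold change of 0.55 was 0.07 without replicate 3.

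Cholesterol genes fell in 10 of 11 cases, beside 65.3% of all genes, with a median log2 fold change of −0.77. Of the 10 falls 6 passed under TMM, beside 32.2% of all genes lower there. SQLE, squalene epoxidase, fell 2.58-fold, from 6.25, 8.23 and 7.39 FPKM to 3, 2.31 and 3.2 FPKM. INSIG1, the sterol-regulated anchor of SCAP, fell 2.47-fold, from 13.9 ± 0.6 to 5.62 ± 0.52 FPKM. FDPS and ACAT2, which act early in the pathway, fell 1.73-fold and 1.79-fold. ABCA1, which exports cholesterol, was the member that rose, 1.76-fold from 2.48 ± 0.35 to 4.37 ± 0.65 FPKM.

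All 4 tested steroidogenic genes were lower on library depth and 1 of them under TMM, beside 65.3% and 32.2% of all genes. CYP11A1, the side chain cleavage enzyme that opens steroid synthesis, was at 137, 163 and 146 FPKM in controls and at 100, 74.0 and 136 FPKM with sulforaphane. Its highest treated library, replicate 3, lay just below the lowest control. The log2 fold change was −0.53 ± 0.17 SE (adjusted p = 0.00926, edgeR), −0.77 without replicate 3, and −0.07 under TMM (adjusted p = 0.711). HSD17B7 fell 1.97-fold and kept its call under TMM (adjusted p = 0.00172), whereas the calls of FDXR and HSD17B1 ended there (adjusted p = 0.675 and 0.0864). HSD17B7 is also a member of the cholesterol list above and is counted in both. The FSH libraries, given here only for scale, had a mean of 558 FPKM of CYP11A1 and differed from sulforaphane by −2.43 on the log2 scale (sulforaphane minus FSH, adjusted p = 1.04e-07, edgeR).

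Genes of granulosa identity and gonadotropin response moved in both directions. GJA1 (connexin 43), the gap junction protein, rose 1.81-fold, from 320, 325 and 323 FPKM to 598, 652 and 498 FPKM, with no overlap. FST, follistatin, the activin binder, rose 1.75-fold from 19.8 ± 1.1 to 34.6 ± 7.0 FPKM. LHCGR, the receptor for luteinising hormone, fell 2.05-fold from 2.04 ± 0.15 to 0.987 ± 0.132 FPKM. AMHR2, the receptor of anti-Müllerian hormone (reads divided between loci), fell 4.73-fold from 2.57 ± 0.33 to 0.553 ± 0.047 FPKM. INHBA, the activin and inhibin beta A subunit (reads divided between loci), fell 1.58-fold on library depth but not under TMM (adjusted p = 0.0881). Of the gonadotropin and cAMP list as a whole, 5 of 14 were higher and 9 lower, near the shares over all genes, and 6 of the falls held under TMM.

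NR4A1, an orphan nuclear receptor induced by cAMP, fell 4.15-fold. Its values were 8.59, 7.43 and 8.40 FPKM in controls and 2.06, 1.79 and 2.02 FPKM with sulforaphane, beside an FSH mean of 22.3 FPKM. VCAN, versican, the proteoglycan of the expanding follicle, fell 2.02-fold from 81.5 ± 5.6 to 40.6 ± 5.9 FPKM. IGFBP4, which binds insulin-like growth factor, fell 2.22-fold from 16.1 ± 1.3 to 7.25 ± 0.87 FPKM, and CTSL, cathepsin L, 2.24-fold from 7.28 ± 0.60 to 3.24 ± 0.53 FPKM. For each of these 4 genes the treated libraries lay below all controls.

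Cell cycle genes were lower in 9 of 9 tested cases (55 listed), beside 65.3% of all genes. Their median log2 fold change was −0.65 beside −0.56 over all genes. Under TMM 3 of the 9 were lower, near the 32.2% of all genes. CDKN1C (p57), an inhibitor of the cycle and not a driver of it, had by far the largest fall, 7.97-fold, from 4.80, 6.01 and 6.37 FPKM to 0.56, 0.5 and 1.1 FPKM. CCND3, cyclin D3 (reads divided between loci), fell 1.64-fold from 90.4 ± 2.3 to 56.6 ± 7.2 FPKM, and CDC25B, the phosphatase that opens mitosis, 1.69-fold. MCM5, a subunit of the replicative helicase, was at 69.6, 59.9 and 67.3 FPKM in controls and at 46.4, 49.2 and 29.6 FPKM with sulforaphane. Replicate 3 was lowest, as for 6 of 7 list members at 5 FPKM or more. The log2 fold changes of MCM2 and MCM5 were −0.70 and −0.65, −0.49 and −0.46 without replicate 3, and their calls ended under TMM (adjusted p = 0.356 and 0.451, edgeR).

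Contractile genes fell almost throughout: 14 of 15 tested members were lower and 1 higher, with a median log2 fold change of −1.18. Against a 1.5-fold minimum 11 falls passed, and 11 under TMM. Over all genes 65.3% were lower, 32.3% against the 1.5-fold minimum and 32.2% under TMM. ACTA2 (reads divided between loci) was at 7158, 7451 and 7298 FPKM in controls and at 2476, 2264 and 2404 FPKM with sulforaphane. The groups were far apart with little spread, and the fall was 3.07-fold (log2 fold change −1.62 ± 0.055 SE, adjusted p = 3.53e-10, edgeR). LMOD1, leiomodin, which nucleates actin filaments in smooth muscle, fell further, 12.9-fold, from 6, 6.02 and 7.15 FPKM to 0.59, 0.35 and 0.55 FPKM. MYOCD, myocardin, the coactivator of SRF that drives smooth muscle genes, fell 3.26-fold from 2.32 ± 0.27 to 0.710 ± 0.155 FPKM.

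MYH11, smooth muscle myosin heavy chain (reads divided between loci), fell 5.23-fold from 22.5 ± 1.6 to 4.30 ± 0.74 FPKM. DES, desmin, fell 6.64-fold from 3.70 ± 0.75 to 0.510 ± 0.147 FPKM, and LDB3, a Z-disc protein, 6.43-fold from 1.27 ± 0.13 to 0.197 ± 0.070 FPKM. CNN1 (calponin) and SMTN (smoothelin) fell 2.24-fold and 2.15-fold. TPM1, tropomyosin, had a log2 fold change of −0.57, close to the median of all genes, and its call ended under TMM (adjusted p = 0.353, edgeR). FLNC, filamin C, was the member that rose, 1.48-fold from 29.1 ± 5.8 to 43.1 ± 3.2 FPKM. TRIM63, a muscle ubiquitin ligase outside the list, fell from 2.03, 2.63 and 1.94 FPKM to 0.05, 0.14 and 0.48 FPKM, with a log2 fold change of −3.30 that was −4.50 without replicate 3. The smooth muscle marker sum fell with these genes, as given above, and the part that the cell makeup has in these changes was not tested.

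Matrix genes were lower in 15 of 16 cases, beside 65.3% of all genes, with a median log2 fold change of −0.95. Under TMM 9 of the falls held, beside 32.2% of all genes lower. COL1A1, the main fibrillar collagen chain, went from 68.5, 70.24 and 75.4 FPKM to 34.8, 29.7 and 30.7 FPKM, a 2.25-fold fall without overlap. COL11A1 fell 2.84-fold from 41.9 ± 2.9 to 14.8 ± 3.2 FPKM and COL8A1 4.53-fold from 6.88 ± 0.67 to 1.52 ± 0.43 FPKM. NID2, nidogen, which links laminin to collagen IV in basement membranes, fell 3.11-fold from 15.1 ± 1.3 to 4.87 ± 0.77 FPKM. SPARC, an abundant collagen binder, fell 1.53-fold from 957 ± 11 to 626 ± 11 FPKM, a call that ended under TMM (adjusted p = 0.143, edgeR). ADAMTS1, the protease that cleaves versican (reads divided between loci), was the member that rose, 1.81-fold from 28.7 ± 1.7 to 51.9 ± 9.4 FPKM. The fibroblast marker sum given above is mostly COL1A1 itself. Of the other fibroblast markers THY1 fell 2.05-fold and PDGFRB rose 1.38-fold, and the part of fibroblasts in the list was not tested.

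Of 8 tested adhesion genes 5 were lower and 3 higher (median log2 fold change −0.61), beside 65.3% lower over all genes, and both tested keratins were lower. VCAM1, a leukocyte adhesion receptor, fell 3.84-fold from 12.7 ± 2.4 to 3.30 ± 0.12 FPKM and ITGA8, an integrin of contractile cells, 2.55-fold. PKP2, plakophilin 2 of desmosomes, rose 2.96-fold from 2.35 ± 0.27 to 6.97 ± 0.96 FPKM. ITGA2, a collagen-binding integrin subunit (reads divided between loci), rose 2.33-fold from 1.82 ± 0.42 to 4.57 ± 0.54 FPKM, and GJA1 is the other riser of the list. KRT8 was at 144, 147 and 147 FPKM in controls and at 42.9, 40.4 and 36.7 FPKM with sulforaphane. It fell 3.64-fold (log2 fold change −1.87 ± 0.083 SE, adjusted p = 3.34e-09, edgeR), and KRT7 fell 2.56-fold. Both keratins are also markers of surface epithelium, and the part of those cells was not tested.

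**Figure D3:**
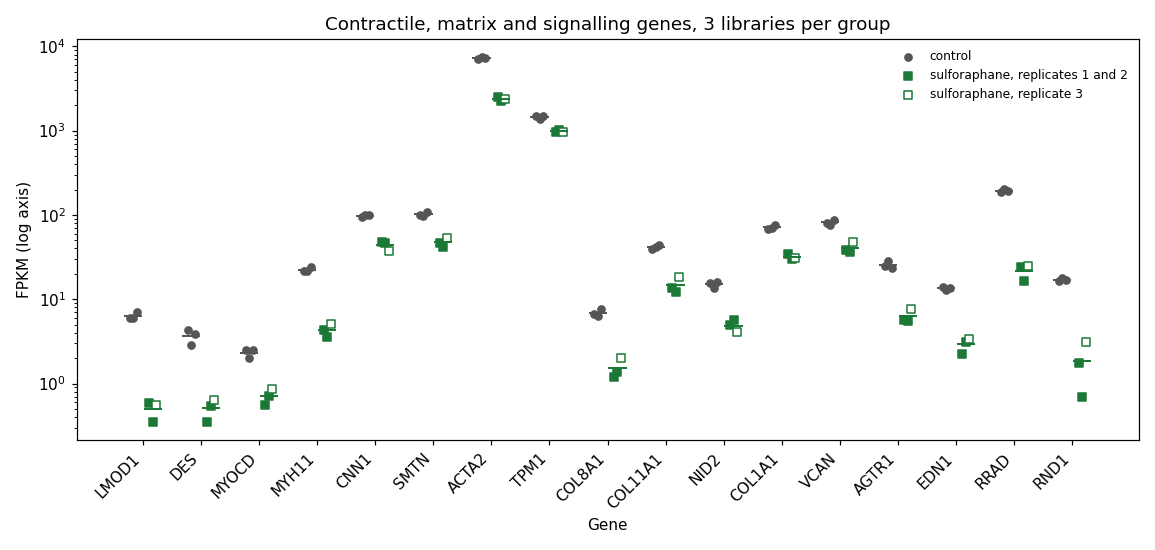
Level of 17 contractile, matrix and signalling genes in each library, in FPKM on a log axis. Circles are the 3 controls, filled squares sulforaphane replicates 1 and 2, open squares replicate 3, and bars the group means. The groups did not overlap for any gene shown, from the 12.9-fold fall of LMOD1 to the 1.48-fold fall of TPM1, whose call ended under TMM.

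Ras-related GTPases and their regulators had the lowest median of the lists with at least 5 tested genes, −1.30. Of 10 members 9 were lower and 7 of these under TMM, beside 65.3% and 32.2% of all genes. RRAD, a GTPase that inhibits calcium channels, was at 187, 205 and 192 FPKM in controls and at 24.1, 16.6 and 25.0 FPKM with sulforaphane. The fall was 8.89-fold (log2 fold change −3.15 ± 0.15 SE, adjusted p = 4.78e-09, edgeR), with the groups far apart. RND1, an atypical GTPase that loosens actin stress fibres, fell 9.24-fold, from 16.5, 17.7 and 16.8 FPKM to 1.74, 0.7 and 3.11 FPKM. Without replicate 3 the fall of RND1 was 14.02-fold. RASL11B fell 3.71-fold from 79.2 ± 2.8 to 21.3 ± 7.1 FPKM and GEM, a relative of RRAD, 2.33-fold. RASD1, a dexamethasone-induced GTPase, was the member that rose, 1.4-fold. RASGEF1B, an exchange factor outside the list, rose 7.47-fold from 1.51 ± 0.23 to 11 ± 1.0 FPKM.

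Of 12 tested members of the list of G protein coupled receptors, 10 were lower (6 under TMM) and 2 higher. Over all genes 65.3% were lower, and 32.2% under TMM. AGTR1, the receptor for angiotensin II, went from 25.1, 28.4 and 23.6 FPKM to 5.68, 5.55 and 7.64 FPKM, a 4.08-fold fall. EDN1, endothelin 1, a constrictor peptide named after its value was seen, fell 4.62-fold from 13.5 ± 0.4 to 2.93 ± 0.59 FPKM. The sphingosine 1-phosphate receptors S1PR1 and S1PR3 (the latter with reads divided between loci) fell 2.80-fold and 2.54-fold. HTR1D, a serotonin receptor, fell 5.69-fold from 2.05 ± 0.43 to 0.357 ± 0.163 FPKM.

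KCNA5, a voltage-gated potassium channel, came close to absence. It had 93, 107 and 79 counts in the control libraries and 2, 0 and 1 counts with sulforaphane. Scaled to library depth, the summed counts stood in a control to sulforaphane ratio of 88.2 (95% exact interval 29.9 to 430, counting error only). Of 8 tested ion channel and transporter genes, 7 were lower and 1 higher, beside 65.3% lower over all genes. Under TMM 5 of the falls held, beside 32.2% of all genes lower. AQP1, a water channel, fell 3.90-fold from 19.7 ± 2.2 to 4.79 ± 0.40 FPKM and CLIC5, a chloride channel protein, 3.37-fold.

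Of 11 tested genes of TGF-beta and BMP signalling 4 were higher and 7 lower, near the shares over all genes, and the ligands went both ways. GDF6, a bone morphogenetic protein, was at 10.7, 10.1 and 12.6 FPKM in controls and at 0.910, 1.32 and 1.12 FPKM with sulforaphane. It fell 9.96-fold (log2 fold change −3.32 ± 0.17 SE, adjusted p = 1.01e-08, edgeR). BMP4 fell 2.07-fold from 28 ± 1.8 to 13.7 ± 2.6 FPKM and TGFB3 2.10-fold from 10.3 ± 0.6 to 5.07 ± 0.58 FPKM. TGFB2, another ligand, rose 1.72-fold from 0.993 ± 0.127 to 1.55 ± 0.45 FPKM. SMAD9, an intracellular mediator of bone morphogenetic proteins, rose 2.05-fold from 21.5 ± 4.3 to 44.0 ± 6.7 FPKM. SFRP4 and SFRP1, secreted Wnt inhibitors, fell 5.04-fold and 4.05-fold, the first from 58.8 ± 4.9 to 11.7 ± 3.0 FPKM. PRKG2, a cGMP-dependent kinase, rose from 0.320, 0.230 and 0.220 FPKM to 2, 1.75 and 4.79 FPKM. Its log2 fold change of 3.47 was 2.87 without replicate 3.

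In the list of growth factor and MAPK genes 7 of 9 rose, 1 of them past a 1.5-fold minimum, beside 34.3% and 14.9% of all genes. MET, the receptor of hepatocyte growth factor, rose 2.14-fold and TGFA, a ligand of the epidermal growth factor receptor, 1.42-fold. FGFR2 fell 2.01-fold from 62.0 ± 3.9 to 30.9 ± 7.2 FPKM. Of 12 immediate-early transcription factor genes, 7 were higher and 5 lower, beside 34.3% and 65.3% of all genes. MYC rose 1.81-fold from 9.41 ± 0.26 to 17 ± 0.3 FPKM, with little spread, and FOSL1, an AP-1 subunit, 2.47-fold from 18.3 ± 1.7 to 45.3 ± 11 FPKM. SNAI2, a repressor of epithelial genes, fell 2.51-fold, from 8.47, 7.57 and 6.93 FPKM to 1.83, 2 and 5.33 FPKM, with a log2 fold change of −1.33 that was −2.0 without replicate 3. ANKRD1, a target of YAP (reads divided between loci), fell 4.17-fold from 87.7 ± 5.2 to 21.1 ± 8.2 FPKM. AHR, the aryl hydrocarbon receptor, and its target TIPARP rose 1.86-fold and 1.60-fold, while its repressor AHRR fell 2.27-fold from 0.957 ± 0.176 to 0.430 ± 0.061 FPKM. AHRR passed the filter only with the FSH libraries counted.

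Of 12 tested cytokine and inflammation genes 4 were higher and 8 lower, near the 34.3% and 65.3% of all genes, and 5 of the falls held under TMM. IRAK2, a kinase of the interleukin 1 and Toll-like receptor pathway outside the list, rose from 2.35, 2.46 and 2.01 FPKM to 14.3, 16.9 and 15.9 FPKM. The groups were well apart and the rise was 6.90-fold (log2 fold change 2.79 ± 0.12 SE, adjusted p = 3.24e-09, edgeR). CCL2, a monocyte chemokine, rose 1.74-fold from 7.06 ± 1.37 to 12.4 ± 0.9 FPKM. SOCS2, a feedback inhibitor of cytokine signalling, fell 4.19-fold, from 2.14, 1.85 and 1.93 FPKM to 0.210, 0.390 and 0.960 FPKM. Without replicate 3, the highest of the treated libraries, SOCS2 fell 8.43-fold. PTX3, a component of the cumulus matrix, fell 1.85-fold. HDAC9, a class IIa histone deacetylase, fell 4.31-fold from 2.92 ± 0.45 to 0.573 ± 0.174 FPKM, while the other tested members of its list changed less than 2-fold.

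Metabolic genes outside these lists included LIPG, endothelial lipase, which rose 2.78-fold from 26.0 ± 1.6 to 71.5 ± 14.1 FPKM, and CPT1B, the muscle carnitine palmitoyltransferase, which fell 5.19-fold from 3.44 ± 0.27 to 0.640 ± 0.148 FPKM. Both belong to the list on fatty acids, in which 3 of 4 tested genes rose, beside 34.3% of all genes. UCP2, an uncoupling protein of the mitochondrial membrane, rose 1.99-fold from 4.28 ± 0.55 to 8.53 ± 0.50 FPKM. AK4, a mitochondrial adenylate kinase, and CREG1, a lysosomal glycoprotein, both named after their values were seen, rose 3.15-fold and 2.53-fold.

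**Figure D4:**
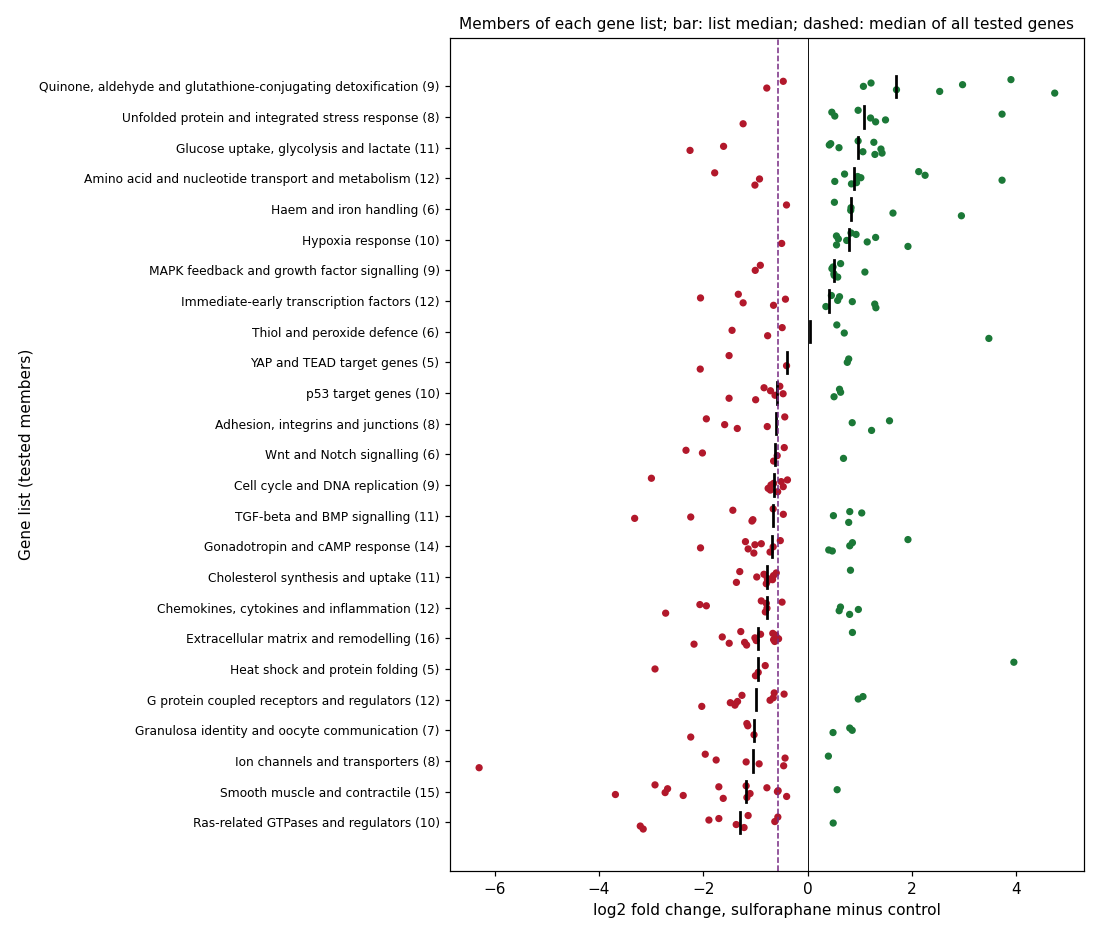
Log2 fold change, sulforaphane minus control, of every tested member of the gene lists with at least 5 tested members (number in brackets). Green points rose and red points fell, the black bar is the list's median, and the dashed line is the median of all 919 genes at −0.56; MXI1 in the hypoxia list did not pass. Detoxification has the highest median, 1.70, and Ras-related GTPases the lowest, −1.30.

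Between the treatments, 512 of 919 genes differed (55.7%), 119 higher with sulforaphane than with FSH (12.9%) and 393 lower (42.8%). All values of this comparison are on library depth, and the 512 became 647 with TMM and 703 with median-ratio scaling. The comparisons of each treatment with control share the control libraries, so only this direct test bears on a difference. NQO1, GCLC, SLC7A11, SRXN1 and HMOX1 were all higher with sulforaphane than with FSH, by 2.89, 3.09, 3.23, 3.06 and 3.97 on the log2 scale (adjusted p of 3.18e-08 or below, edgeR). HMOX1 stood at 49.2 FPKM with FSH, below its control mean of 100 FPKM. GSTA1 differed by 0.29 on the log2 scale, which did not pass (adjusted p = 0.176), with an FSH mean of 21.3 FPKM.

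Several genes that fell also separated the treatments. OLR1, a scavenger receptor for oxidised lipoprotein named after its value was seen, went from 5.43 ± 0.29 to 1.22 ± 0.35 FPKM with sulforaphane and was at 37.5 FPKM with FSH. CTSL and IGFBP4 differed by −8.34 and −5.26 on the log2 scale (sulforaphane minus FSH, adjusted p = 2.28e-13 and 6.45e-12, edgeR). MYH11 and AGTR1 did not differ between the treatments at the threshold (adjusted p = 0.265 and 0.797). ACTA2 was only slightly lower with sulforaphane, by −0.31 on the log2 scale (adjusted p = 0.000236).

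The smallest changes that passed were those of FOSL2 (1.27-fold higher), LEPROTL1, ACSL4 and LOC110256649 (1.3-fold higher each, the last with reads divided between loci) and PEG10 (1.3-fold lower). CTSK, the protease cathepsin K (reads divided between loci), was 1.36-fold lower. Under TMM the log2 fold changes of PEG10 and CTSK turned to 0.10 and 0.035 (adjusted p = 0.519 and 0.838, edgeR). PEG10, an imprinted gene derived from a retrotransposon, also had overlapping groups, with 82.5, 69.0 and 90.7 FPKM in controls and 53.7, 70.0 and 62.3 FPKM with sulforaphane.

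Sulforaphane replicate 3 differed from the other treated libraries in a way that varied by gene group. Over the 441 genes, 256 were highest in replicate 3 (58.1%) and 119 lowest there (27.0%), and its root mean square log2 distance was 0.33 from replicate 1 and 0.37 from replicate 2, which lay 0.19 apart. Control libraries lay 0.14 to 0.18 apart. CEMIP, a hyaluronan-degrading protein, was at 776, 700 and 845 FPKM in controls and at 214, 219 and 513 FPKM with sulforaphane. Replicate 3 was nearest to the controls, and the log2 fold change of −1.29 was −1.83 without it. EGR1, an immediate-early factor, was at 9.41, 9.69 and 10.3 FPKM in controls and at 19.0, 14.6 and 38.0 FPKM with sulforaphane, so replicate 3 was furthest from the controls.

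SYT2 and F2 show how 1 library decided an overlap. SYT2, a synaptotagmin, had 14 FPKM in replicate 3, above all controls (13.5 to 13.8 FPKM), while replicates 1 and 2 had 8.77 and 6.62 FPKM. Its log2 fold change was −0.49 (adjusted p = 0.0201, edgeR) and −0.82 without replicate 3, and the call ended under TMM (adjusted p = 0.844). F2, prothrombin, had 4.83 FPKM in replicate 3, within the control range of 4.12 to 4.85 FPKM, against 8.52 and 9.16 FPKM. Without replicate 3, 306 genes were higher and 601 lower, and no list of at least 5 tested members changed its count of rises or falls by more than 1.5 times except the ion channels, whose single rise was lost. The cause of the difference of replicate 3 was not tested.

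**Figure D5:**
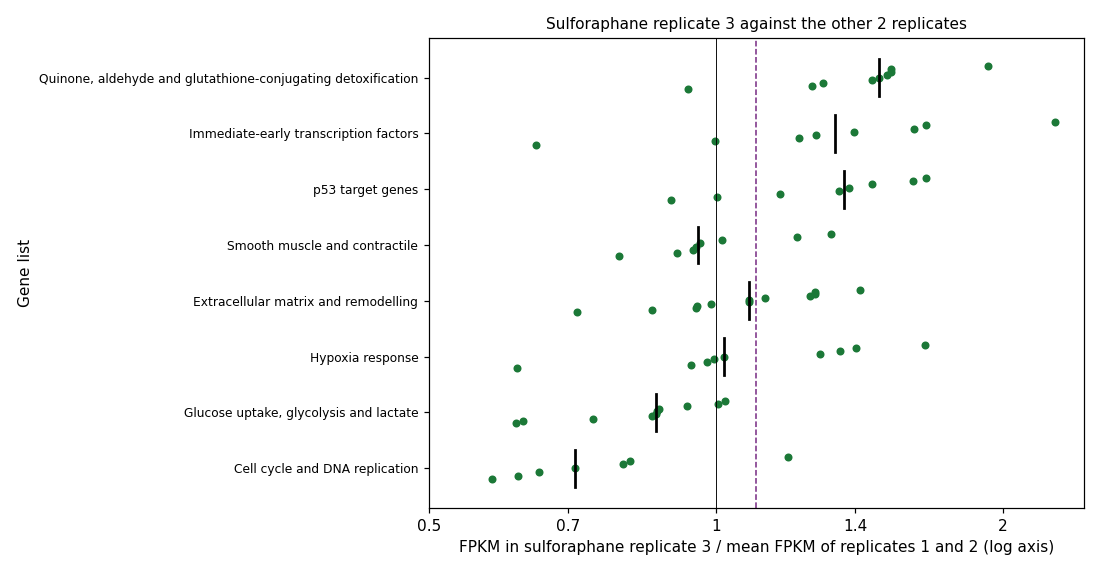
Level in sulforaphane replicate 3 divided by the mean of replicates 1 and 2 (log axis) for members of 8 gene lists with a mean of at least 5 FPKM with sulforaphane. Each point is a gene, the black bar is the list's median, and the dashed line is the median of the 441 genes at 1.10. Detoxification genes lie mostly above 1 (median 1.48), glycolysis (0.866) and cell cycle genes (0.712) mostly below.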

How the data were processed

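Per the labels' protocols, oligo(dT) beads enriched the mRNA for Illumina sequencing, and no step of them marks strand. The genome build Sscrofa11.1 and the tools HISAT2, StringTie 1.3.1, Bowtie2 2.2.8, fastp, edgeR and DESeq2 stand in the submitters' processing notes, without role or order. The authors deposited, per gene and library, FPKM and an estimated count, per the file headers. The sources used here do not name the counter. Estimated counts were rounded to whole numbers. Non-whole counts occurred in 143 rows (129 tested), whose reads were thus divided between loci, and named genes among them are marked. NCBI gene identifiers named 1053 of the 1081 rows, and every one was present in RefSeq's Sscrofa11.1 table; the remaining 28 rows were loci from assembly.

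The deposited table is part of each library, so depth was worked out by dividing counts by FPKM in 354 genes, scaled with 10 genes whose annotated span matched within 0.1%. The depths (16600000 to 22300000 fragments over 9 libraries) were the library sizes. edgeR 4.0.16 (R 4.3.3) fitted 3 group means over 9 libraries by quasi-likelihood, with Benjamini-Hochberg adjustment over 919 genes and a threshold of 0.05. The biological coefficient of variation was 10.9%. A standard error is the absolute log2 fold change over the root of the quasi-likelihood F. FPKM are mean ± SD of 3 libraries. With 3 against 3 an exact permutation p cannot go below 0.1, and none was computed per gene. The fit was tested on simulated data.

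The comparison, its gene lists and the rule for named genes were chosen with earlier results of these data known. The rule took the 12 largest rises and 12 largest falls that passed, in genes with a symbol that reached 1 FPKM in a group mean and had groups that did not overlap; the 4 members of each list with the smallest adjusted p; NQO1, HMOX1, GCLC, SRXN1, SLC7A11, CYP11A1, VEGFA, ACTA2 and COL1A1 in every case; the 12 genes with the widest sulforaphane replicates; and the 5 smallest changes that passed. Not every gene it selects is named. The other genes named, among them further list members, the neighbours of NQO1 and GSTA1 and the count ratio of KCNA5, were chosen after their values were seen. Lists for the proteasome and metallothioneins had 0 tested members. Genes of these kinds outside those lists were tested, such as MT-2B and PSMB8, a proteasome subunit. Alternatives were TMM and median-ratio scaling, DESeq2 1.42.0, and limma 3.58.1 with trend on log2(FPKM + 1) and log2(FPKM + 0.1). Further ones were no filter, a mean of at least 5 FPKM, the 6 libraries alone, a replicate block and a 1.5-fold minimum. Each control and sulforaphane library was also left out in turn, but no FSH library was. Results on a few genes are not reported here.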

Additional observations from a re-analysis of the deposited data

How the results depend on the processing

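Of the 919 genes, 315 were higher and 600 lower with sulforaphane on library depth. The 512 differences from FSH became 647 with TMM and 703 with median-ratio scaling. The count of falls moved to 296 with TMM and 369 with median-ratio scaling, which put the median log2 fold change at −0.09 and −0.20. Fewer genes tested (a mean of at least 5 FPKM) gave 178 rises, 311 falls and 292 genes that differed from FSH, and the 1.5-fold minimum gave 137 rises and 297 falls. Leaving out 1 control or sulforaphane library gave 306 to 314 rises, 584 to 601 falls, and 499 to 593 differences from FSH. The last count was highest without sulforaphane replicate 3, and no FSH library was left out. DESeq2, both limma fits, no filter and the 6 libraries alone kept the counts of rises and falls within 1.5 times. Of 190 genes named or selected, TMM ended the call of 22 in the same direction and also those of CTSK and PEG10, whose log2 fold changes turned to 0.0349 and 0.0986. Median-ratio scaling ended the call of 14, CTSK and PEG10 included. Same-numbered control and sulforaphane libraries did not deviate together (correlations of −0.01, −0.18 and −0.06), so the numbers were not read as pairs. With the replicate block 314 genes were higher and 601 lower, and 505 differed from FSH. The planned search of promoters for motifs was not run, since no sequence table was at hand.

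The sources used here do not say what selected the table's rows. Since small differences from control are missing, the adjustment covers these rows and no wider transcriptome, and a scaling computed on its rows has few unchanged genes to rest on. Depth limits values that rest on few counts most, such as those of KCNA5 with sulforaphane (2, 0 and 1 counts).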

Other observations

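The table also held rows outside the gene lists, described here as values and chosen after they were seen. KDR, the main receptor of VEGFA and an endothelial marker, was below the filter: it had 9, 11 and 11 counts in controls and 107, 100 and 181 counts with sulforaphane (0.08 to 0.1 and 0.87 to 1.67 FPKM). It was the 1 endothelial marker of 8 that was analysed, so it cannot be set beside others. KRT18, the partner of KRT8, had 33, 24 and 38 counts in controls and 1, 4 and 2 counts with sulforaphane.

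Assembled loci that the deposited table annotates with retroviral gag or pol products rose together in the treated libraries. MSTRG.15538 was at 46.9 ± 5.5 FPKM in controls, 121 ± 13 FPKM with sulforaphane and 274 ± 17 FPKM with FSH, and MSTRG.15537 at 38.3 ± 2.9, 96.0 ± 6.4 and 236 ± 7 FPKM. MSTRG.9709, annotated with an endonuclease or reverse transcriptase, went from 2.65 ± 0.25 to 3.87 ± 0.21 FPKM with sulforaphane and was at 1.3 ± 0.22 FPKM with FSH. Reads of the first 2 loci had been divided between copies, so the share of each is uncertain.

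By the KEGG pathway column of the deposited table, 7 of 7 tested genes annotated to ferroptosis were higher with sulforaphane: SLC7A11, GCLC, HMOX1, SAT1, TFRC, SLC40A1 and ACSL4, with a median log2 fold change of 0.96. They include genes that oppose this iron-dependent form of cell death (SLC7A11 and GCLC, which supply glutathione) and a gene that favours it (ACSL4, which activates polyunsaturated fatty acids and rose 1.3-fold). Of 12 tested genes annotated to cAMP signalling, 1 was higher and 11 lower (6 under TMM), with a median of −1.07. Over all genes 34.3% were higher and 65.3% lower (32.2% under TMM). Both pathways were picked from 111 with at least 5 tested genes, so neither count stands as a test.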
